A study of Mus musculus with 16 samples.

Results

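Carboxylesterases are the subject here: Ces1b, Ces1c, Ces1d, Ces1e, Ces1f, Ces1g, Ces2a, Ces2e, Ces3a and Ces3b, 10 genes chosen by symbol. They are 10 of 78317 genes listed in the deposited tables, and all 10 are among the 14781 genes with enough counts to be tested. RNA was measured in whole liver of 16 wild-type C57BL/6J mice, an inbred strain. The 4 groups of 4 were females and males on a normal chow (LabDiet, 4.5% of calories from fat) and females and males on a high fat diet (D12492 from Research Diets, 60% of calories from fat). All mice arrived aged 6 weeks, ate their diet for 10 weeks and were group-housed. Since each diet has its own maker, fat need not be the only difference between them. Cage and litter are not given in the sources used here, so p-values measure the spread between these mice only. In whole liver, fewer cells of a type and less RNA per cell cannot be told apart.

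Carboxylesterases are serine hydrolases of the endoplasmic reticulum that cut ester, amide and thioester bonds. In liver they activate or clear ester drugs, and several of them also release fatty acids from stored glycerolipids and cholesteryl esters, which links them to the loading of lipoproteins. The mouse has many more copies of these genes than humans do, in tandem rows on 1 chromosome, and the enzymes are grouped into subfamilies with different substrates. In the reference annotation all 20 mouse carboxylesterase genes lie on chromosome 8, with the Ces1 genes on the minus strand and the Ces2 and Ces3 genes on the plus strand.

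Promoters are shown for some of the members that hold a motif marked below, to let the copies be compared where transcription starts. RefSeq promoter entries (GRCm38.p6) were found for 7 of the 10 members, with none for Ces1d, Ces1f and Ces3a. Capitals mark 2 motifs that were chosen after the sequences had been viewed and searched on both strands over the 250 bases before each start. STAT-type, antioxidant-type, TATA-type and CCAAT box motifs were searched too and are not marked. Ces3b has an entry but holds neither marked motif. TTATGTAA, the D-box, was found in Ces1b, Ces1c, Ces1e and Ces1g, and in 0.819% of 32851 promoters of the same length. The first 3 windows show it in Ces1c (chr8:93131284-93131433, minus strand), Ces1e (chr8:93229620-93229769, minus strand) and Ces1g (chr8:93337360-93337459, minus strand), all written 5′ to 3′ along the gene.
Ces1c: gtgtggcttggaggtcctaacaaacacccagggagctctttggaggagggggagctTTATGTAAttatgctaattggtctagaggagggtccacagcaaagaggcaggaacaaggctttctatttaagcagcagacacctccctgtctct
Ces1e: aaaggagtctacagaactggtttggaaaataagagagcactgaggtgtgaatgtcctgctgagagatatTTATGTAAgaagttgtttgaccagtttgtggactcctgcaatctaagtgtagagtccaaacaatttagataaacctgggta
Ces1g: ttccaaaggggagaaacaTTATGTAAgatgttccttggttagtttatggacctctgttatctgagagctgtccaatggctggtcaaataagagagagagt
In Ces1c and Ces1e the D-box begins 94 and 81 bases before the start, and in Ces1g it begins 232 bases before it. CAAAGTTC, a motif of HNF4 type, was found in Ces2a and Ces2e, on the strand opposite to the gene, so that GAACTTTG is in capitals here, and in 0.898% of promoters. The windows are the 150 bases before the starts of Ces2a (chr8:104733853-104734002, plus strand) and Ces2e (chr8:104926110-104926259, plus strand).
Ces2a: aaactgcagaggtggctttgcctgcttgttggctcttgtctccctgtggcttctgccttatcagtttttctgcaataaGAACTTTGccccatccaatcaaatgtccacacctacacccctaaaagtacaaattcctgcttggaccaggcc
Ces2e: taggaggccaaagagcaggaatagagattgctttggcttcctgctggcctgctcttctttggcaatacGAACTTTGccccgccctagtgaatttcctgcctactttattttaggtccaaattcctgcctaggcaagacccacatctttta
The match begins 72 bases before the start of Ces2a and 82 bases before that of Ces2e. A match is a description of the letters only, and any part of these motifs in the levels of the genes was not tested.

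Library totals were 27566339 to 41420589 expected counts in females on normal diet, 22682339 to 29200728 in females on high fat diet, 24569706 to 38843167 in males on normal diet and 22228115 to 29173327 in males on high fat diet. Within groups, male high fat diet replicates 2 and 3 were the closest pair of libraries. Their chi-square statistic was 4 per gene, above the value of about 1 that sampling noise alone gives, where the other pairs within groups gave 20.7 to 307. Replicates 1 and 4 of that group stood apart from these, at 155 to 307. The labels give this pair only as replicates 2 and 3, and whether they are independent samples was not settled. The n of 4 for male high fat diet may therefore overstate the number of independent livers. Many calls on named genes change with this pair averaged or left out, or with replicates 1 and 4 left out. Such changes are given beside the result or in the closing section, but not for every gene and comparison. Hepatocyte markers (Alb, Apoa1, Ttr, Serpina1c, Cps1) were the bulk of the marker signal in every library. Their summed level was 46200 to 59700 TPM in males on high fat diet, 61200 to 71100 in males on normal diet, and 70500 to 86600 in females. Of these 5 hepatocyte markers, 0 rose and 1 fell on high fat diet in each sex. Of 5 cholangiocyte markers, 0 rose and 0 fell in females, and 0 rose and 1 fell in males. Of 5 intestinal epithelium markers, 2 were tested, and 1 rose and 0 fell in each sex. Markers of pancreatic acinar cells reached 28.6 TPM in a male high fat diet library and 5.8 TPM in a female normal diet one, and 3 of 4 kidney tubule markers were at 0 in every library. The summed level of 5 Kupffer cell markers was 258 to 390 TPM in females on high fat diet and 139 to 192 TPM in females on normal diet. In males it was 111 to 235 TPM on high fat diet and 117 to 186 TPM on normal diet. Of these 5 markers, 1 rose and 0 fell on high fat diet in females, and 0 rose and 0 fell in males. Of 6 pericentral hepatocyte markers, 1 rose and 0 fell on high fat diet in females (Lgr5, 2.45-fold) and 3 rose and 0 fell in males (Glul 2-fold, Lgr5 1.98-fold, Rhbg 1.69-fold). Of 6 periportal markers, 0 rose and 1 fell in each sex (Cyp2f2, 1.9-fold in females and 1.66-fold in males). Of 5 stellate cell markers, 2 rose in females (Col1a1 3.04-fold and Des 1.69-fold) and 0 in males, and 0 fell in either sex. Of 5 adipocyte markers, 3 were tested, and 1 rose in males: Cfd had 0.354 ± 0.204 CPM (SD, n = 4) on normal diet and 5.99 ± 4.74 CPM on high fat diet, with overlap. All these calls are from the same test as the members. Of all tested genes, 5.74% rose and 5.76% fell on high fat diet in females, and 6.03% rose and 5.36% fell in males. The part of these shifts in the diet differences given next was not tested.

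The plot of all members by library shows the pattern that the following paragraphs describe. Values are CPM, counts divided by the TMM-scaled library size.

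**Figure D1:**
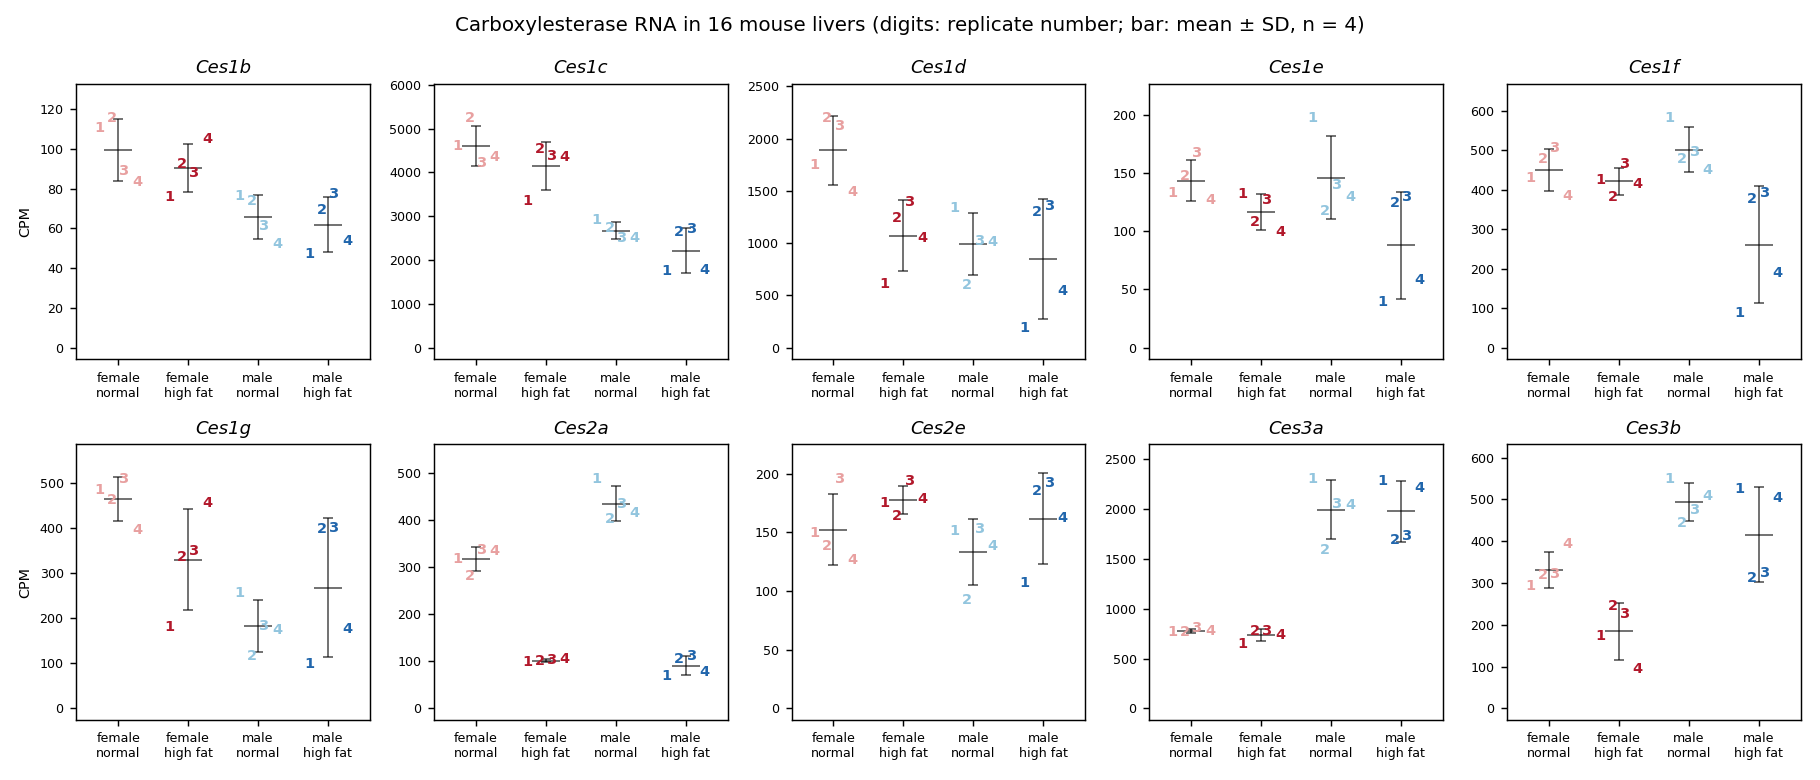
CPM (vertical axes, linear from 0) of the 10 carboxylesterases in each of 16 livers, by sex and diet. Digits are replicate numbers and bars are means with SD (n = 4); Ces2a stands at 68.7 to 110.4 CPM in both high fat groups and at 281.9 to 487.7 CPM in both normal diet groups.

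Ces2a, an enzyme that cuts ester drugs and neutral lipids, was lower on the high fat diet in both sexes. In females its level was 317.9, 281.9, 336.8 and 334.7 CPM on normal diet in replicates 1 to 4, and 97.6, 100.9, 102.6 and 104.9 CPM on high fat diet. In males it was 487.7, 402.3, 433.4 and 415.7 CPM on normal diet and 68.7, 105.7, 110.4 and 76.9 CPM on high fat diet. In neither sex did the diet groups overlap, and every high fat library lay below every normal diet library. Ces2a fell by 1.65 ± 0.14 (SE) on the log2 scale in females, which is 3.13-fold (edgeR quasi-likelihood test, adjusted p = 3.57e-06, n = 4 and 4). It fell by 2.26 ± 0.14 in males, which is 4.81-fold (adjusted p = 1.71e-08, n = 4 and 4). By the same edgeR fit the difference of these changes, females minus males, was 0.62 ± 0.19 (adjusted p = 0.157), which did not pass the threshold. It passed without male high fat replicates 2 and 3 (0.93, adjusted p = 0.00806). On normal diet Ces2a was lower in females than in males by 0.45 ± 0.13 on the log2 scale, a fold of 1.37 (adjusted p = 0.0285), with no overlap. This call was lost without female normal diet replicate 1 or 2 or male normal diet replicate 1 or 3 (adjusted p = 0.0691, 0.107, 0.0723 and 0.0652). On high fat diet the sexes overlapped for Ces2a (0.17 ± 0.13, adjusted p = 0.395), and the difference was 0.48 (adjusted p = 0.0116) without male high fat replicates 2 and 3 and -0.093 (adjusted p = 0.636) without replicates 1 and 4.

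Ces2e, a close relative of Ces2a, did not follow it. Its level was 149.3, 138.2, 195.6 and 126.4 CPM in females on normal diet and 174.9, 164.2, 193.6 and 178.1 CPM on high fat diet. In males it was 151.2, 92.2, 152.5 and 138.0 CPM on normal diet and 107.0, 185.2, 192.2 and 162.4 CPM on high fat diet. The diet groups overlapped in both sexes. The log2 difference, high fat minus normal, was 0.22 ± 0.18 in females (adjusted p = 0.463) and 0.28 ± 0.18 in males (adjusted p = 0.349). The transcripts of the pair are 81.4% identical over 1917 aligned bases, and 24 of the 1911 windows of 50 bases in Ces2a also occur in Ces2e. Per transcript length, the ratio of Ces2a to Ces2e in TPM was 2.26 ± 0.405 (SD, n = 4) in females and 3.54 ± 0.706 in males on normal diet. On high fat diet it was 0.605 ± 0.038 in females and 0.595 ± 0.0722 in males. The more abundant of the pair was Ces2a in all 8 normal diet livers and Ces2e in all 8 high fat diet livers.

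**Figure D2:**
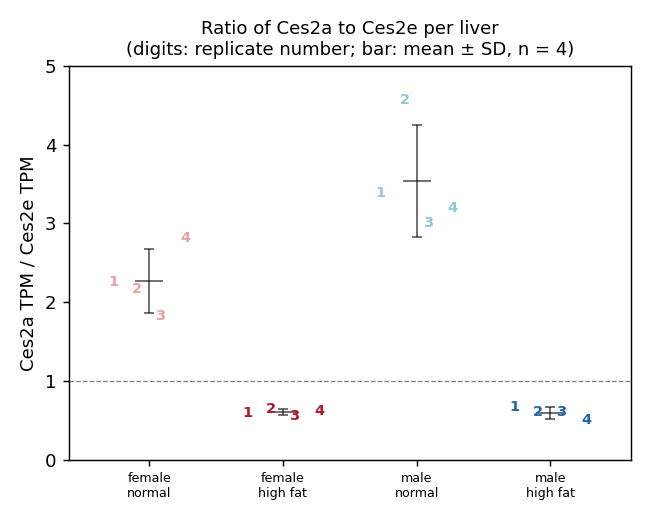
Ratio of Ces2a TPM to Ces2e TPM (vertical axis, linear from 0) in each liver by group; digits are replicate numbers, bars are means with SD (n = 4) and the dashed line is a ratio of 1. The 8 normal diet livers lie between 1.83 and 4.57 and the 8 high fat livers between 0.499 and 0.674.

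Summed over both genes, Ces2 counts fell by 0.73 ± 0.14 on the log2 scale in females (adjusted p = 0.00382) and by 1.18 ± 0.15 in males (adjusted p = 7.96e-05) on high fat diet, by edgeR's quasi-likelihood test. Female normal diet libraries held 420.06 to 532.44 CPM of this sum and female high fat libraries 265.1 to 296.21 CPM. Male normal diet libraries held 494.53 to 638.93 CPM and male high fat ones 175.7 to 302.61 CPM.

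The Ces1 enzymes include the liver's lipid hydrolases and a plasma esterase. Ces1c, the esterase that mouse liver secretes into plasma, had the highest mean level of the 10 in all 4 groups. It held 53.3% ± 3.02 (SD, n = 4) of the TPM of the 10 genes in females on normal diet, 59.6% ± 1.54 in females on high fat diet, 38.4% ± 4.02 in males on normal diet and 37.7% ± 2.79 in males on high fat diet. Its level in females was 4612, 5240, 4202 and 4361 CPM on normal diet and 3345, 4543, 4373 and 4354 CPM on high fat diet. In males it was 2921, 2739, 2506 and 2510 CPM on normal diet and 1757, 2636, 2699 and 1766 CPM on high fat diet. Every female library lay above every male one on both diets. Ces1c was higher in females by 0.79 ± 0.15 on the log2 scale on normal diet (fold 1.72, adjusted p = 0.00249) and by 0.91 ± 0.15 on high fat diet (fold 1.88, adjusted p = 0.000719). Its diet difference passed in neither sex by this test, and the libraries overlapped (adjusted p = 0.572 in females and 0.27 in males). In males the diet difference of Ces1c passed in 1 of 26 alternatives, the fit without male high fat replicates 2 and 3.

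Ces1b, whose transcript is 91.4% identical to that of Ces1c, had 83.5 to 115.5 CPM in females on normal diet and 52.3 to 76.3 CPM in males on normal diet. The groups did not overlap, and Ces1b was higher in females by 0.60 ± 0.16 on the log2 scale (adjusted p = 0.0188). The high fat groups had 75.8 to 105.0 CPM in females and 47.1 to 77.1 CPM in males, with overlap, and Ces1b was higher in females by 0.54 ± 0.16 (adjusted p = 0.0247). The first call was lost without female normal diet replicate 1 or 2 or male normal diet replicate 3 or 4 (adjusted p = 0.0558, 0.0675, 0.0624 and 0.0636). The second was lost without female high fat replicate 4 or male high fat replicate 1 or 4 (adjusted p = 0.0807, 0.0564 and 0.0797), and without male high fat replicates 1 and 4 together (0.30, adjusted p = 0.273). The counts of Ces1b and Ces1c were not whole numbers in 16 of 16 libraries, since RSEM shares reads between copies. Of the 50-base windows of Ces1b, 190 of 1915 also occur in Ces1c, so part of the likeness of these 2 genes can come from shared reads, which was not tested.

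Ces1g, an esterase known for its part in hepatic lipid secretion, stood at 485, 463, 509 and 395 CPM in females on normal diet and 255, 115, 183 and 173 CPM in males on normal diet. It was higher in females by 1.35 ± 0.40 on the log2 scale, a fold of 2.55 (adjusted p = 0.0348), and the sexes did not overlap. The call was lost without any 1 of 6 of the 8 libraries compared, female normal diet replicates 1, 2 and 3 and male normal diet replicates 2, 3 and 4 (adjusted p = 0.0751, 0.0748, 0.0657, 0.0884, 0.0842 and 0.0817). The high fat groups had Ces1g at 180, 335, 349 and 455 CPM in females and 97.3, 396, 399 and 177 CPM in males, and the sexes overlapped. In males the diet difference was 0.56 ± 0.39 on the log2 scale (adjusted p = 0.392), and the difference of the diet changes was -1.05 ± 0.56 (adjusted p = 0.461). Without male high fat replicates 1 and 4 these became 1.13 (adjusted p = 0.0251) and -1.62 (adjusted p = 0.0451), and without replicates 2 and 3 the diet difference in males was -0.41 (adjusted p = 0.528).

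Ces1d, the triacylglycerol hydrolase of hepatocytes that supplies lipid for lipoproteins, had 1746, 2197, 2123 and 1490 CPM in females on normal diet and 606, 1239, 1394 and 1045 CPM on high fat diet. These groups did not overlap, but the log2 difference of -0.82 ± 0.48 did not pass the test (adjusted p = 0.289). In males Ces1d had 1332, 602, 1019 and 1007 CPM on normal diet and 189, 1301, 1353 and 538 CPM on high fat diet, a span of 7.18-fold within the latter group. Females on normal diet lay above males on normal diet without overlap (0.93 ± 0.48, adjusted p = 0.205). With only the compared groups in the fit, the diet difference in females and this sex difference passed (adjusted p = 0.0423 and 0.0113), and both also passed when male high fat replicates 1 and 4 were left out of the fit (adjusted p = 0.0471 and 0.021).

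Ces1f, another lipid hydrolase of liver, had 582, 479, 497 and 451 CPM in males on normal diet and 87.8, 376, 391 and 189 CPM in males on high fat diet. All 4 high fat libraries lay below all 4 normal diet ones, and the log2 difference was -0.94 ± 0.32 (adjusted p = 0.0667), which did not pass. It passed without male high fat replicate 1, 2 or 3 (-0.66, -1.18 and -1.21, adjusted p = 0.0332, 0.0413 and 0.0321) and by DESeq2's Wald test (adjusted p = 0.0122). It also passed with replicates 2 and 3 averaged (adjusted p = 0.0357). The difference was -1.86 (adjusted p = 0.000241) without replicates 2 and 3 and -0.39, which did not pass, without replicates 1 and 4. In females Ces1f had 384 to 505 CPM on normal diet and 383 to 466 CPM on high fat diet. The difference of the diet changes was 0.85 ± 0.44 (adjusted p = 0.444), and on high fat diet the sex difference was 0.69 ± 0.32 (adjusted p = 0.132). Neither passed, but without male high fat replicates 2 and 3 both did (1.77, adjusted p = 0.00654, and 1.61, adjusted p = 0.000156). Without replicates 1 and 4 they were 0.29 and 0.13. The sex difference of Ces1f also passed without male high fat replicate 3 (adjusted p = 0.0469) and on the log2(TPM + 1) and log2(TPM + 0.1) scales (1.09 on both, adjusted p = 0.0265 and 0.0292). Ces1e, known as egasyn because it anchors beta-glucuronidase in the endoplasmic reticulum, had 197, 117, 140 and 130 CPM in males on normal diet and 39.3, 124, 129 and 58.0 CPM on high fat diet (-0.73 ± 0.30, adjusted p = 0.123). The difference was -1.59 (adjusted p = 0.000433) without male high fat replicates 2 and 3 and -0.20 (adjusted p = 0.519) without replicates 1 and 4, and it passed by DESeq2's Wald test (adjusted p = 0.0498). In females it had 127 to 167 CPM on normal diet and 99.5 to 131 CPM on high fat diet.

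Male high fat replicates 1 and 4 were below replicates 2 and 3 in each of the 6 Ces1 genes and in Ces2a and Ces2e, and above them in Ces3a and Ces3b. The 4 libraries were spread most in Ces1d, Ces1g, Ces1f and Ces1e, with coefficients of variation of 68.0%, 57.6%, 56.6% and 52.2%, where the median over all tested genes in that group was 16.2%. Summed Ces1 counts were higher in females than in males by 0.75 ± 0.21 on the log2 scale on normal diet (adjusted p = 0.023) and by 0.75 ± 0.21 on high fat diet (adjusted p = 0.0192). On normal diet the sum was 6840.2 to 8640 CPM in females and 4126.9 to 5363.1 CPM in males. It was 4762.2 to 6796.4 CPM in females and 2217.5 to 5049.5 CPM in males on high fat diet. Without male high fat replicates 1 and 4, the second of these was 0.33 (adjusted p = 0.164).

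Ces3a and Ces3b are liver esterases of the third subfamily. Ces3a was lower in females on both diets, and Ces3b on high fat diet. Ces3a had 770, 769, 811 and 775 CPM in females on normal diet and 2306, 1589, 2056 and 2037 CPM in males on normal diet. Its level was 644, 775, 776 and 739 CPM in females on high fat diet and 2279, 1690, 1730 and 2212 CPM in males. Every male library lay above every female one, and the diet groups overlapped within each sex. Ces3a was lower in females by 1.35 ± 0.13 on the log2 scale on normal diet (fold 2.56, adjusted p = 2.74e-06) and by 1.43 ± 0.13 on high fat diet (fold 2.7, adjusted p = 1.08e-06).

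Ces3b had 291, 320, 321 and 392 CPM in females on normal diet and 172, 246, 225 and 92.9 CPM on high fat diet, with no overlap. It fell by 0.85 ± 0.24 on the log2 scale on high fat diet, which is 1.8-fold (adjusted p = 0.0303). The call was lost without female normal diet replicate 2, 3 or 4 or female high fat replicate 1 or 4 (adjusted p = 0.0595, 0.0528, 0.0866, 0.0752 and 0.0579), and with no low count filter (adjusted p = 0.0936). It was also lost with only the compared groups (adjusted p = 0.0691) and with the replicate block (adjusted p = 0.0617). Nor did it pass on log2(TPM + 1) or log2(TPM + 0.1) (adjusted p = 0.0596 and 0.0615). In males Ces3b had 549, 443, 475 and 508 CPM on normal diet and 525, 311, 323 and 504 CPM on high fat diet, with overlap. The difference of the diet changes was -0.60 ± 0.34 (adjusted p = 0.483). Between the sexes on high fat diet, Ces3b was lower in females by 1.18 ± 0.24 (fold 2.26, adjusted p = 0.00309). On normal diet the difference of -0.58 ± 0.24 did not pass (adjusted p = 0.109). Neither comparison had overlap. Without male high fat replicates 1 and 4 the difference on high fat diet was -0.79 (adjusted p = 0.0612).

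Ces3a and Ces3b transcripts are 95.4% identical and share 615 windows of 50 bases, 30.8% of those of Ces3a and 26.1% of those of Ces3b, so the split of reads between them is uncertain. Summed Ces3 counts, which do not depend on that split, were lower in females by 1.16 ± 0.14 on normal diet (adjusted p = 2.54e-05) and by 1.35 ± 0.14 on high fat diet (adjusted p = 3.87e-06). The sum was 1061.8 to 1167.1 CPM in females and 2032.3 to 2854.7 CPM in males on normal diet. It was 816.06 to 1021.4 CPM in females and 2001.4 to 2803.8 CPM in males on high fat diet. An exon of Ces3a also overlaps Gm45724, a gene on the other strand, and the labels do not say whether counting used the strand.

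**Figure D3:**
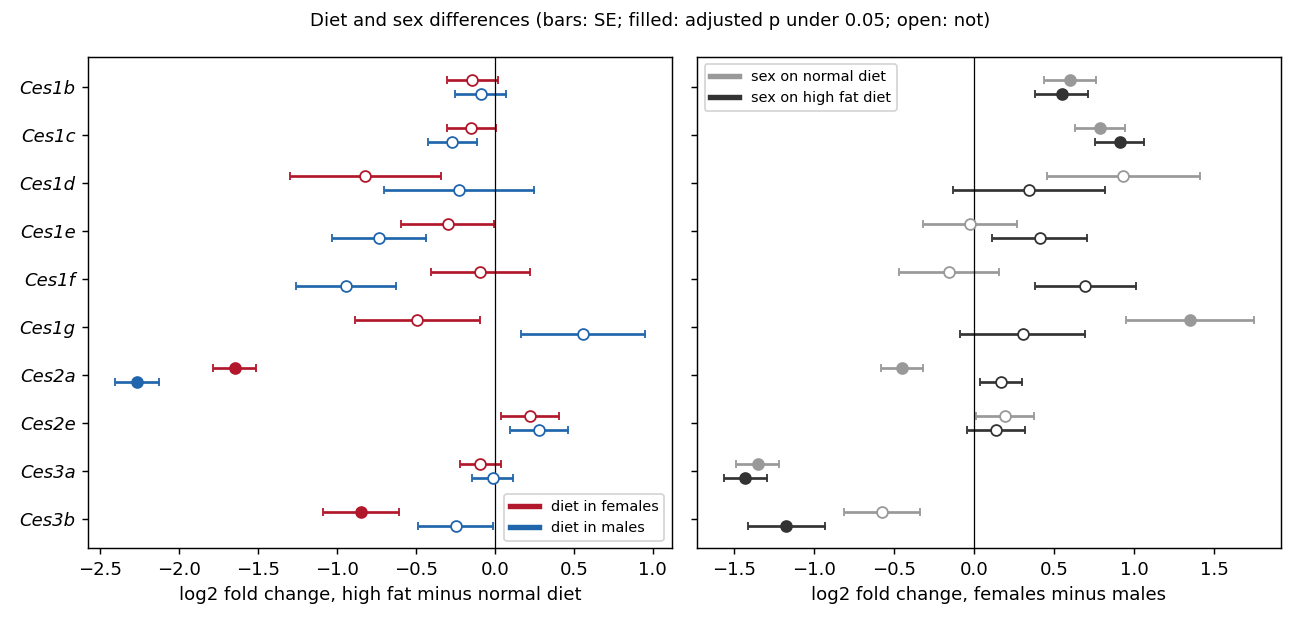
Log2 fold changes (horizontal axes) with SE bars for each member, high fat minus normal diet on the left and females minus males on the right. Filled points passed the adjusted p threshold of 0.05; Ces2a lies at -1.65 and -2.26 on the left, and Ces3a at -1.35 and -1.43 on the right.

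Counted over the 10 members, on high fat diet in females 0 rose and 2 fell (Ces2a and Ces3b), where 5.74% of all tested genes rose and 5.76% fell. Groups did not overlap for 3 members (Ces1d, Ces2a, Ces3b), against 18.3% of tested genes. In males 0 rose and 1 fell (Ces2a), where 6.03% of tested genes rose and 5.36% fell, and 2 members had groups that did not overlap (Ces1f, Ces2a), against 18.5%. At an unadjusted p under 0.05 the members that rose also numbered 0 in either sex. For the difference of diet changes between the sexes 0 of 10 passed, where 0.677% of tested genes did, and 1 member, Ces2a, was at an unadjusted p under 0.05. On normal diet 3 were higher in females (Ces1b, Ces1c, Ces1g) and 2 lower (Ces2a, Ces3a), where 7.03% and 8.68% of tested genes were. For 7 members the sexes did not overlap on normal diet, against 22% of tested genes. On high fat diet 2 were higher in females (Ces1b, Ces1c) and 2 lower (Ces3a, Ces3b), where 8.84% and 11.6% were, and for 3 members the sexes did not overlap, against 22.7%. The median log2 difference of the members was -0.22 for diet in females and -0.24 for diet in males, beside 0.00 and 0.01 over all tested genes. It was 0.08 for sex on normal diet and 0.32 for sex on high fat diet, beside -0.00 and -0.01. DESeq2's Wald test called 3 members in males on diet, adding Ces1f and Ces1e. That test also called more of the 14781 tested genes for diet in males, 2250 where edgeR's test called 1684.

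Compared per transcript length, in TPM, the order of the 10 genes differed with sex and diet. On normal diet females had Ces1c at 3364 ± 195.9 TPM (SD, n = 4), Ces1d at 1243 ± 245.4 and Ces3a at 508.9 ± 47.35, each apart from the next. Males had Ces1c at 1945 ± 114.6, Ces3a at 1284 ± 146.5 and Ces1d at 641.4 ± 168.2, again each apart from the next. These comparisons are of ranges over the livers of a group and do not pair the genes by liver. Ces2a was the fifth in males on normal diet, at 291.3 ± 14.18 TPM, and the eighth in males on high fat diet, at 63.96 ± 13.79 TPM. In the latter group its range overlapped those of Ces2e above it and Ces1e below it. Within each of these livers, however, Ces2a was below Ces2e, at a ratio of 0.499 to 0.674. In females Ces2a was the sixth on normal diet (215.3 ± 29.49 TPM) and the ninth on high fat diet (81.06 ± 4.543 TPM), and its range overlapped those of its neighbours in both. Ces1b had the lowest mean in each of the 4 groups, at 43.58 to 71.97 TPM, but its range overlapped that of the next gene in both high fat groups. The summed level of the 10 genes was 6330.8 ± 511.5 TPM in females and 5089.6 ± 357.4 in males on normal diet, and 6045.8 ± 852 and 4485.8 ± 734.4 on high fat diet. Exact two-sided permutation tests gave p = 0.0286 between the sexes on normal diet, the smallest this design allows, 0.0857 on high fat diet, and 0.657 and 0.229 between the diets in females and males. After adjustment over these 4 tests p was 0.114, 0.171, 0.657 and 0.305. On the log2(TPM + 1) and log2(TPM + 0.1) scales the median of all tested genes for diet in females was 0.15 and 0.22. Diet differences in summed TPM may include that shift, and no total over the 10 genes was tested in CPM. By edgeR's test on counts, the female diet differences were -0.29 (adjusted p = 0.408) for Ces1, -0.73 (adjusted p = 0.00382) for Ces2 and -0.26 (adjusted p = 0.232) for Ces3. The Ces3 genes held 30.5% of the summed TPM in males on normal diet and 10.9% in females on normal diet.

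**Figure D4:**
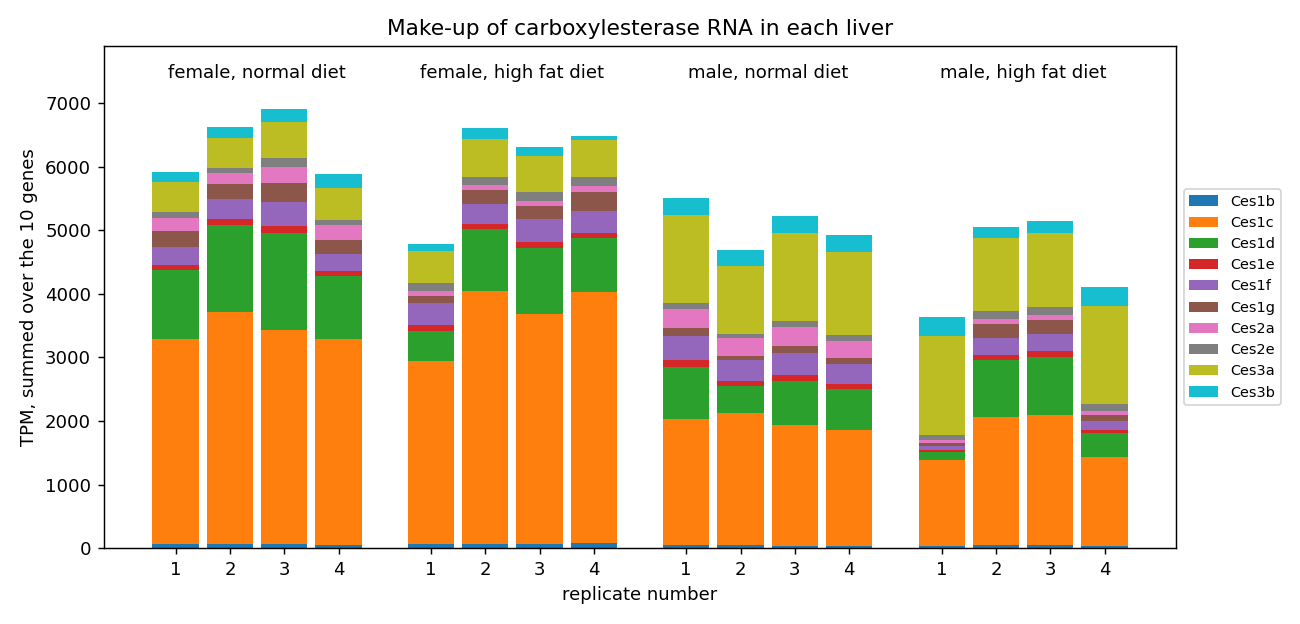
Stacked TPM of the 10 members (vertical axis, linear from 0) in each of 16 livers, with replicate numbers on the horizontal axis. Ces1c is the largest block in the female livers, and Ces3a is larger in male than in female livers; the sums run from 3633.6 to 6901.4 TPM.

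Of the 10 other mouse carboxylesterase genes, 5 were tested. Ces1h, Ces2d-ps, Ces2f and Ces5a were at 0 in every library, and Ces1a had at most 16 counts. Among the 5 tested, 1 fell and 0 rose on high fat diet in females, where 5.76% and 5.74% of tested genes did, and 0 fell and 1 rose in males, where 5.36% and 6.03% did. Their median log2 difference was -0.08 in females and 0.29 in males. Ces2c, a close homolog of the main intestinal and hepatic enzyme for ester drugs, had 45.0, 44.7, 58.9 and 44.1 CPM in females on normal diet and 7.6, 15.6, 18.2 and 28.0 CPM on high fat diet. It fell by 1.47 ± 0.37 on the log2 scale (adjusted p = 0.0212), but not without female normal diet replicate 3 or female high fat replicate 2 (adjusted p = 0.0505 and 0.05). In males the difference of Ces2c was -0.70 ± 0.36 (adjusted p = 0.227). It was lower in females by 1.91 ± 0.37 on high fat diet (adjusted p = 0.00342) and by 1.14 ± 0.36 on normal diet (adjusted p = 0.0476), and the latter was lost without male normal diet replicate 1 (-0.99, adjusted p = 0.0994) and under 17 of the other settings tried. Ces2g had 40.2, 32.9, 42.2 and 39.5 CPM in males on normal diet and 55.9, 51.8, 50.3 and 52.4 CPM on high fat diet, and rose by 0.44 ± 0.13 (adjusted p = 0.0352). That call was lost without any 1 of the 8 male libraries (adjusted p = 0.0523 to 0.106) and with male high fat replicates 2 and 3 averaged (adjusted p = 0.0583). It was also lost with those replicates left out (adjusted p = 0.0879) and with replicates 1 and 4 left out (adjusted p = 0.13). The difference of diet changes for Ces2g was -0.52 ± 0.18 (adjusted p = 0.242).

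Ces2b and Ces4a, whose functions in liver are less well described, were lower in females on both diets. Female libraries held 0 to 5 counts of Ces2b, and male libraries 12 to 170.04, so no fold is given; adjusted p was 0.000936 on normal diet and 0.00192 on high fat diet. Ces4a had 0.368 to 0.887 CPM in females and 3.71 to 7.22 CPM in males on normal diet (-3.26 ± 0.65, adjusted p = 0.00408). Its range was 0.157 to 1.27 CPM in females on high fat diet and 1.70 to 11.4 CPM in males (-3.34 ± 0.65, adjusted p = 0.00292). In all, 3 of the 5 tested genes were lower in females on each diet and 0 were higher. Of all tested genes, 8.68% were lower and 7.03% higher in females on normal diet, and 11.6% lower and 8.84% higher on high fat diet.

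**Figure D5:**
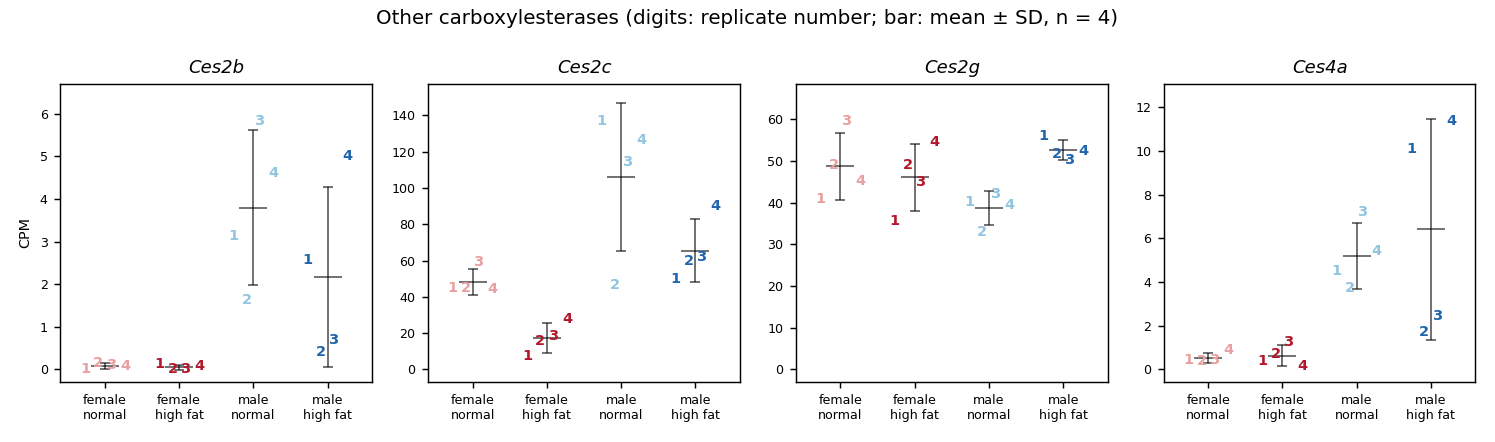
CPM (vertical axes, linear from 0) of Ces2b, Ces2c, Ces2g and Ces4a in each liver by group; digits are replicate numbers and bars are means with SD (n = 4). Ces2b and Ces4a lie near 0 in the 8 female livers.

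The counts in the 3 lists that follow stand beside the same shares of all tested genes. For diet 5.74% rose and 5.76% fell in females, and 6.03% rose and 5.36% fell in males. For sex 7.03% were higher and 8.68% lower in females on normal diet, and 8.84% higher and 11.6% lower on high fat diet.

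Other liver lipid hydrolases and their cofactors gave 14 tested genes of 15. The high fat diet gave 4 that fell and 0 that rose in females, and 2 fell and 2 rose in males. Lipg, endothelial lipase, was 43.8 ± 8.75 CPM (SD, n = 4) in females on normal diet and 13.8 ± 2.86 on high fat diet, and fell by 1.66 ± 0.21 on the log2 scale (adjusted p = 0.000144). In males it fell by 1.38 ± 0.21 (adjusted p = 0.000635), from 30.8 ± 7.29 to 11.8 ± 3.28 CPM. Pnpla2, adipose triglyceride lipase, fell by 0.58 ± 0.13 in females (adjusted p = 0.00713) and by 0.74 ± 0.13 in males (adjusted p = 0.00116). In females the fall of Pnpla2 did not pass on either log2(TPM) scale (adjusted p up to 0.0859). Abhd6, a monoacylglycerol lipase, fell by 1.21 ± 0.20 in females (adjusted p = 0.00139). G0s2, an inhibitor of adipose triglyceride lipase, rose in males by 1.72 ± 0.37 (adjusted p = 0.00932), from 11.8 ± 6.12 to 38.8 ± 8.53 CPM, and not without male high fat replicates 2 and 3 (1.41, adjusted p = 0.0773). On normal diet G0s2 was higher in females by 1.93 ± 0.37 (adjusted p = 0.00373), and Lipc, hepatic lipase, was higher in females by 0.82 ± 0.15 (adjusted p = 0.0018). On normal diet 2 of the 14 were higher in females and 0 lower, and on high fat diet 1 was higher and 1 lower. The latter, Lipe, passed in only 4 of 26 alternatives.

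Of 9 esterases and hydrolases of xenobiotics outside the family, 0 passed for diet in females. In males 2 fell and 1 rose. The gene that rose, Bphl, passed in only 13 of 26 alternatives. Ephx1, microsomal epoxide hydrolase, fell by 1.02 ± 0.20 in males (adjusted p = 0.00348), from 596.4 ± 41.02 to 295 ± 109 CPM. Pon2, a lactonase, fell by 0.47 ± 0.10 (adjusted p = 0.00415). On normal diet 4 of the 9 were higher in females and 3 lower, among them Pon1, the plasma paraoxonase made in liver, which was higher by 1.06 ± 0.20 (adjusted p = 0.00173). On the high fat diet 2 were higher in females and 1 lower, and the call of Pon1 there passed in 17 of 26 alternatives.

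Among 10 nuclear receptors and factors known for esterase genes, 2 fell and 1 rose on high fat diet in females, and 2 fell and 0 rose in males. Nr1i2, the pregnane X receptor, which senses xenobiotics, was 99.5 ± 6.94 CPM in females on normal diet and 57.5 ± 6.18 on high fat diet, and fell by 0.79 ± 0.10 (adjusted p = 0.000109). In males it fell by 0.41 ± 0.10 (adjusted p = 0.0143), from 74.4 ± 4.47 to 56.1 ± 5.61 CPM, and not without replicates 1 and 4 of the high fat group (adjusted p = 0.129) or on the log2(TPM + 1) and log2(TPM + 0.1) scales (adjusted p = 0.0583 and 0.0563). Hnf4a, a main transcription factor of hepatocytes, fell by 0.60 ± 0.12 in females (adjusted p = 0.00331) and by 0.47 ± 0.11 in males (adjusted p = 0.0139), and in males not without male normal diet replicate 3 (adjusted p = 0.0582) or male high fat replicates 2 and 3 (adjusted p = 0.083). With log2(TPM + 1) neither fall of Hnf4a passed (adjusted p = 0.0501 and 0.0653), nor on log2(TPM + 0.1) (adjusted p = 0.0511 and 0.0637). Nfe2l2, the regulator of antioxidant genes, rose by 0.36 ± 0.10 in females (adjusted p = 0.0224), and not without female normal diet replicate 1 or 4 or female high fat replicate 4 (adjusted p = 0.0517, 0.0568 and 0.0682). On normal diet 2 of the 10 were higher in females and 0 lower, and on high fat diet 2 were higher and 1 lower.

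Among the members, levels went together most for Ces1e and Ces1f (Pearson r = 0.96 of log2 CPM over 16 libraries) and Ces1b and Ces1c (r = 0.93), and went opposite ways most for Ces1c and Ces3a (r = -0.89). Outside the family, the 2 genes closest to each member were found over all tested genes by the same measure. For Ces2a they were Cyp2c55 (r = 0.991, Spearman rho 0.968) and Ndel1 (r = 0.964, rho 0.950). For Ces3a they were Nat8f5 (r = 0.991, rho 0.979) and Mup7 (r = 0.986, rho 0.962), and for Ces3b they were Serpina3k (r = 0.958, rho 0.918) and Serp1 (r = 0.941, rho 0.941). For Ces1c they were Hmgb1 (r = 0.965, rho 0.956) and Cyp2c68 (r = 0.962, rho 0.924). For Ces1f they were Klkb1 (r = 0.949, rho 0.503) and Scd1 (r = 0.935, rho 0.524), with rho far below r. These are the highest values over all tested genes, the libraries form 4 groups, and the points share library and depth, so they are given as a description with no test.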

How the data were processed

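Poly(A) RNA of 16 livers was sequenced (NEBNext Ultra, NovaSeq), per the labels' protocols. The submitters' processing notes name STAR, RSEM and GRCm39, with no versions. The authors deposited RSEM expected counts per gene, which need not be whole (4.89% of entries were not), and TPM, which is scaled for length and library. Symbols were matched by Ensembl identifier for 51487 of 78317 genes, holding 98.97% of the counts. Promoters and transcripts come from references of an older build, so no coordinates of the deposited tables are given.

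Expected counts were rounded. Genes were kept by filterByExpr on the 4 groups (14781 genes, 99.94% of counts) and scaled by TMM. The quasi-likelihood test of edgeR 4.0.16 (R 4.3.3, robust) was fitted to 16 libraries with 1 mean per group. It gave 5 contrasts, 2-sided, with Benjamini-Hochberg adjustment over all tested genes and a threshold of 0.05. For the sums of Ces1, Ces2 and Ces3, the members were replaced by their summed counts and the same kind of fit was run again. Summed TPM was compared by exact permutation tests over 70 splits. The scripts were checked on simulated data.

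The members and lists were chosen with earlier results of these data known. Named genes are all members, the other carboxylesterases tested, up to 3 called genes with the smallest p per other list and contrast, and the 2 genes most like each member. The text gives these only in part. Alternatives were no low count filter, DESeq2 1.42.0 (size factors and Wald test), limma 3.58.1 on log2(TPM + 1) and log2(TPM + 0.1), only the compared groups, a replicate block, each library left out, and male high fat replicates 2 and 3 averaged. Leaving out male high fat replicates 1 and 4, or 2 and 3, was added after seeing the data. Alternatives are listed per gene only for results the text prints, a limit also set after seeing them.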

Additional observations from a re-analysis of the deposited data

Results flagged for a closer look

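Of 60 sets of 4 libraries (15 tested carboxylesterases in 4 groups), 4 held a library far from the other 3. Chance gives about 1 in 20, so 4 of 60 is near the number that chance alone gives. Ces1c was at 3344.73 CPM in female high fat replicate 1, against 4354 to 4543 in the others. Ces3a was at 810.605 CPM in female normal diet replicate 3, against 768.5 to 774.9. Ces2c was at 58.9119 CPM in the same library, against 44.1 to 44.97. Ces4a was at 0.88657 CPM in female normal diet replicate 4, against 0.3679 to 0.4391.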

How the results depend on the processing

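Of 50 member comparisons, 12 passed the test; none of the 12 changed sign in any of the 26 alternatives, and 6 passed in every one (Ces2a for diet in both sexes, and Ces1c and Ces3a for sex on both diets). Of the 38 that did not pass, 21 changed sign in at least 1 alternative and 22 passed in none, and most of these are not given as fold changes here. The count for diet in females went from 2 to 1 (Ces3b lost) with no low count filter, on both log2(TPM) scales and with the replicate block, and was 1 to 2 with 1 library left out. With only the compared groups Ces3b was lost and Ces1d passed. Over all tested genes, diet in females called 1700 of 14781, and 1439 of 14009 with only the compared groups. It called 1260 of 30041 with no low count filter and 1864 of 14781 with the replicate block. On log2(TPM + 1) and log2(TPM + 0.1) it called 2926 and 2763 of 14781, and with 1 library left out 947 to 1874 genes. The count for diet in males went from 1 to 3 with DESeq2's Wald test and to 2 with male high fat replicates 2 and 3 averaged, and was 1 to 2 with 1 library left out. Over all tested genes, diet in males called 1684 of 14781, and 2250 of 14781 with the Wald test. It called 1179 of 15046 with those replicates averaged, and 1113 to 2043 genes with 1 library left out. The count for sex on normal diet, 5, was 2 to 6 with 1 library left out. It was 2 (Ces1c and Ces3a) without female normal diet replicate 1 or 2 or male normal diet replicate 3, and 3 without male normal diet replicate 4. Over all tested genes, sex on normal diet called 2322 of 14781, and 1325 to 2766 genes with 1 library left out. Without female normal diet replicates 1 and 2 in turn, these were 1523 and 1325. Without male normal diet replicates 3 and 4 in turn, they were 1378 and 1679.

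The male high fat group decides several counts. Without its replicates 1 and 4, diet in males called 2 (Ces2a, Ces1g), the difference of diet changes 1 (Ces1g) and sex on high fat diet 2 (Ces1c, Ces3a) in place of 4. Without its replicates 2 and 3 these were 4 (Ces1c, Ces1e, Ces1f, Ces2a), 3 (Ces1e, Ces1f, Ces2a) and 9 (all members but Ces2e). Over all tested genes, the same comparisons called 1684, 100 and 3022 of 14781 with every library kept. They called 1731, 372 and 1719 of 15574 without replicates 1 and 4, and 1182, 131 and 2704 of 15524 without replicates 2 and 3. The fits with replicates left out rest on 2 libraries in that group and move in opposite ways. The cause was not tested.

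Without replicates 1 and 4, the sign turned for Ces2a between the sexes on high fat diet (-0.093), the Ces2 sum in the same comparison (-0.066), the Ces1 sum for diet in males (0.13) and the Ces3 sum for the difference of diet changes (0.037). Without replicates 2 and 3, Ces1g for diet in males was -0.41 and the Ces1 sum for diet in males was -0.87 and passed (adjusted p = 0.00553). The Ces1 sum between the sexes on high fat diet no longer passed with only the compared groups (0.75, adjusted p = 0.0765) or without replicates 1 and 4 (0.33), and ranged from 0.57 to 0.92 with 1 library left out, where it was lost without female high fat replicate 4 (0.70, adjusted p = 0.0534) or male high fat replicate 4 (0.61, adjusted p = 0.0799). On normal diet it ranged from 0.69 to 0.84 and was lost without female normal diet replicate 2 or male normal diet replicate 2, 3 or 4 (adjusted p = 0.0732, 0.0608, 0.067 and 0.0595). The Ces3 sum for diet in males, near 0 (-0.06), turned on both log2(TPM) scales (0.025), with replicates 2 and 3 averaged (0.013) and left out (0.15), and ranged from -0.15 to 0.019 with 1 library left out. The Ces1 sum for the difference of diet changes, also near 0, was 0.23 on both log2(TPM) scales, 0.059 with the replicate block, 0.16 with replicates 2 and 3 averaged, 0.56 with them left out, and -0.18 to 0.17 with 1 library left out. Summed TPM between diets in females ranged from -471 to 136.5, and between the sexes on high fat diet from 1276 to 1982, reaching the smallest exact p, 0.0286, without female high fat replicate 1.

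Within each sex, deviations of same-numbered libraries on normal and high fat diet correlated at -0.159 to 0.137. Same-numbered libraries of different sexes were not compared. With the replicate block, 1864 genes were called for diet in females and 1980 in males, beside 1700 and 1684 without it. Whether replicate numbers pair the libraries was not settled. On log2(TPM + 1) the median of all tested genes for diet in females was 0.15, and Ces2a fell by 1.39 on that scale. Depth did not limit the members, whose lowest expected count was 1057.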
